A study of Mus musculus with 6 samples.

Results

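Receptors, ligands and target genes of the Notch pathway were examined in RNA sequencing of the cerebral cortex of newborn mice. The 10 genes were the receptors Notch1, Notch2, Notch3 and Notch4, the ligands Dll1, Dll3, Jag1 and Jag2, and the target genes Hes1 and Hes5. They were chosen by name, each matched 1 of the 53379 genes in the count table, and all 10 were among the 21244 genes that passed the filter on low counts. The tested libraries were 3 from Npas3+/- cortex and the comparison libraries were 3 from wild-type (WT) cortex, all from C57BL/6 mice at postnatal day 0. Npas3 encodes a neuronal basic helix-loop-helix PAS transcription factor, and Npas3+/- mice carry a single intact copy of it. How the other copy was disrupted, and whether each library came from its own animal, was not given in the sources used here, so the p-values speak only to the spread among the 6 libraries, part of which may be technical.

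Notch receptors are cell-surface proteins that are cut when they bind a Delta (Dll) or Jagged (Jag) ligand on a neighbouring cell. The released intracellular part enters the nucleus and joins the DNA-binding protein RBPJ at target genes such as Hes1 and Hes5, whose products repress proneural genes. In the developing cortex this pathway is known for keeping radial glia, the neural stem cells, from becoming neurons, and in blood vessels it acts in endothelium and in the contractile cells around it.

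Total counts were 75540885 to 87811574 in the Npas3+/- libraries and 67378231 to 83256308 in the WT libraries. CPM are the counts scaled to a common library size with TMM factors. In CPM, Npas3 itself averaged 12.6 ± 3.45 across the Npas3+/- libraries, against 25.8 ± 2.53 across the WT libraries (SD, n = 3 each), with no overlap. Its log2 fold change of -1.04 did not pass in edgeR (adjusted p = 0.270) and did in DESeq2 (adjusted p = 7.84e-05). The cortical projection neuron markers Neurod6 (649 ± 92.5 CPM in Npas3+/- and 514 ± 58.2 CPM in WT libraries) and Tbr1 (273 ± 26.4 CPM in Npas3+/- and 264 ± 13.1 CPM in WT libraries; SD, n = 3 each) were present in all 6 libraries, as the tissue label implies. Npas3+/- replicate 2 was the library with high Xist, at 3667 CPM. The markers of ganglionic eminence and striatum, regions that adjoin the cortex, differed widely within both genotypes, with summed levels of 218 to 321 CPM in Npas3+/- libraries and 273 to 381 CPM in WT libraries. On the leading principal component, Npas3+/- replicate 3 (23.0) lay among the WT libraries (10.8 to 47.7) and not with Npas3+/- replicates 1 and 2 (-65.9 and -44.1).

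The sequences before 2 of the transcription starts are shown because RBPJ and the Hes proteins, the factors through which the pathway acts, have known recognition sequences. RefSeq windows of build GRCm38.p6 (mm10) matched 9 of the 10 genes, in 10 windows. The gene without a window was Hes1, the other Hes target, so it was not searched. The 250 bases before each start were searched on both strands for the RBPJ core GTGGGAA and for the N box CACNAG, a sequence bound by Hes proteins. No match overlapped another. Hes5, the gene with the lowest Npas3+/- level relative to WT among the 10, was the only one of the 9 with an RBPJ core, and its window held 2, at -226 to -220 and at -83 to -77 from the start, shown in capitals (chr4:154960673-154960922, plus strand). Notch3, the receptor whose Npas3+/- libraries all lay below WT, held 2 N boxes, at -204 to -199 and at -159 to -154, shown in capitals (chr17:32166891-32167140, minus strand).
Hes5: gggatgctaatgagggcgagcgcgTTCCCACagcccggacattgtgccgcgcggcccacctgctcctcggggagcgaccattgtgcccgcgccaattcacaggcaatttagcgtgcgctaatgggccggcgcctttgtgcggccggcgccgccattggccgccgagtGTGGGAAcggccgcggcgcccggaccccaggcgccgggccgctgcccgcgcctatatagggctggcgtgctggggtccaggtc
Notch3: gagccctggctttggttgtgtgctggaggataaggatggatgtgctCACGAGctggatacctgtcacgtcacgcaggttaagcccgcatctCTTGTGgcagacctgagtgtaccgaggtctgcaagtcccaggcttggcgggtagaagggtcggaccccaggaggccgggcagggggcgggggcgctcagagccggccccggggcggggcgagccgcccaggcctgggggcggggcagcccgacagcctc
Of 32841 such windows over all genes in the RefSeq table, 5.41% held the RBPJ core and 36.7% the N box. Besides Notch3, the Notch1 and Notch2 windows each held 1 N box, and the levels of both genes overlapped between the genotypes. Of the 10 windows, 3 thus held an N box and 1 an RBPJ core. The windows of Jag1, Jag2, Dll1, Dll3 and Notch4 held neither. These matches describe letters in the windows and were not tested as sites.

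The 10 genes covered a wide range of levels. Divided by the length of their merged annotated exons, Jag2 (15.6 ± 0.538 CPM per kb) was highest in Npas3+/- cortex, followed by Hes5 (9.25 ± 3.03), Dll1 (5.42 ± 0.251), Notch1 (4.78 ± 0.667), Notch2 (4.29 ± 0.799), Dll3 (3.30 ± 0.359), Notch3 (3.22 ± 0.343), Hes1 (2.44 ± 1.01), Jag1 (1.64 ± 0.306) and Notch4 (0.584 ± 0.0616; SD, n = 3). In WT cortex Hes5 was highest at 14.2 ± 0.737 CPM per kb and Jag2 next at 13.04 ± 0.417 (SD, n = 3). In each of the 3 Npas3+/- libraries Jag2 stood above Hes5, and in each of the 3 WT libraries Hes5 stood above Jag2. Dll1, Notch1 and Notch2 were neighbours in both genotypes. In Npas3+/- cortex Dll1 stood above Notch2 in each of the 3 libraries, while the range of Notch1 overlapped both, and in WT cortex the ranges of all 3 genes overlapped. Notch3 lay apart from Dll3 in WT cortex (4.25 ± 0.201 against 2.999 ± 0.355 CPM per kb), while in Npas3+/- cortex their libraries overlapped. Notch4 was the lowest in all 6 libraries.

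Among the receptors, Notch3 was lower in all Npas3+/- libraries than in any WT library. Notch3 (ENSMUSG00000038146, chromosome 17, 32120820 to 32166852) encodes a receptor best known from the smooth muscle cells and pericytes of vessels and also made by radial glia. It stood at 24.3, 24.6 and 29.2 CPM in Npas3+/- replicates 1 to 3, against 33.7, 36.2 and 33.2 CPM in WT replicates 1 to 3. The Npas3+/- mean was 75.8% of the WT mean, and the highest Npas3+/- library, replicate 3, was below the lowest WT library. The log2 fold change was -0.40 (SE 0.10, 95% interval -0.63 to -0.17), and it did not pass in edgeR's quasi-likelihood test adjusted over all genes (adjusted p = 0.276). DESeq2 placed Notch3 past the threshold of 0.05 (log2 fold change -0.40, adjusted p = 0.0276). With a score of the striatal markers as a covariate the value was -0.27 (edgeR adjusted p = 0.820). With a correction for GC content the value was -0.49.

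Notch1 and Notch2, the receptors most studied in neural stem cells, overlapped between the genotypes. Notch1 (ENSMUSG00000026923, chromosome 2, 26457903 to 26516663) was at 66.5, 59.3 and 78.1 CPM in Npas3+/- libraries, against 67.7, 65.8 and 77.0 CPM in WT libraries. Its log2 fold change was -0.05 (SE 0.11), with an interval of -0.31 to 0.22, so these libraries leave room for a Npas3+/- level from 0.809 to 1.16 times that of WT. Notch2 (ENSMUSG00000027878, chromosome 3, 98013527 to 98150361) was at 42.7, 39.9 and 56.0 CPM in Npas3+/- libraries, against 50.6, 51.1 and 63.4 CPM in WT libraries. Its replicates 1 and 2 were below every WT library and replicate 3 was not, with a log2 fold change of -0.25 (SE 0.15, edgeR adjusted p = 0.546). The value was -0.41 without Npas3+/- replicate 3, -0.16 without Npas3+/- replicate 2, -0.13 without WT replicate 3 and -0.13 with the endothelial score as a covariate. Notch4 (ENSMUSG00000015468, chromosome 17, 34564268 to 34588503), a receptor of endothelial cells, was at 5.07, 4.92 and 4.15 CPM in Npas3+/- libraries, against 3.24, 5.04 and 5.64 CPM in WT libraries. Summed over all libraries it had the fewest reads of the 10, although Hes1 had fewer in Npas3+/- replicates 1 and 2 and WT replicate 3. Notch4 had 219 to 446 counts per library and a log2 fold change of 0.02 (SE 0.23), which was 0.42 with the endothelial score as a covariate.

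Among the ligands, Jag2 was higher in all Npas3+/- libraries than in any WT library. Jag2 (ENSMUSG00000002799, chromosome 12, 112907819 to 112929776) encodes a Jagged-type ligand and had the most reads of the 10, with 6031 to 9818 counts per library. It stood at 111.7, 109.7 and 104.5 CPM in Npas3+/- replicates 1 to 3, against 89.1, 89.1 and 94.2 CPM in WT replicates 1 to 3. The spread within each genotype was small, with coefficients of variation of 3.45% in Npas3+/- and 3.20% in WT cortex. The log2 fold change was 0.26 (SE 0.06, 95% interval 0.13 to 0.39) and did not pass in edgeR (adjusted p = 0.270), while DESeq2 called it (log2 fold change 0.26, adjusted p = 0.0400). Jag2 is among 8 of the 10 genes that fall within the 4241 tested genes of highest GC content, whose median log2 fold change was 0.08, beside -0.09 in the 4241 of lowest GC content. With this trend removed, the value was 0.16 (edgeR adjusted p = 0.433). With the striatal score as a covariate the value was 0.20 (edgeR adjusted p = 0.820).

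The other 3 ligands overlapped between the genotypes. Dll1 (ENSMUSG00000014773, chromosome 17, 15367354 to 15376872), which cells that begin to differentiate present to their neighbours, was at 23.9, 21.8 and 23.0 CPM in Npas3+/- libraries, against 23.0, 20.5 and 22.9 CPM in WT libraries. Its log2 fold change was 0.05 (SE 0.09), and the interval of -0.16 to 0.25 bounds the Npas3+/- level between 0.896 and 1.19 times that of WT. Dll3 (ENSMUSG00000003436, chromosome 7, 28293553 to 28302238), a divergent ligand known to act on Notch within the same cell, was at 8.53, 10.5 and 9.15 CPM in Npas3+/- libraries, against 9.03, 7.38 and 9.23 CPM in WT libraries (log2 fold change 0.14, SE 0.14). The value was 0.051 without Npas3+/- replicate 2, 0.044 without WT replicate 2, 0.044 with the GC trend removed and 0.034 with the striatal score as a covariate. Jag1 (ENSMUSG00000027276, chromosome 2, 137081456 to 137116644), a ligand of endothelial, smooth muscle and progenitor cells, was at 7.49, 10.4 and 10.8 CPM in Npas3+/- libraries, against 10.1, 11.6 and 12.7 CPM in WT libraries. Its log2 fold change was -0.26 (SE 0.17, edgeR adjusted p = 0.589), and Npas3+/- replicate 1 stood apart as the lowest. The value was -0.12 without that library and -0.16 with the endothelial score as a covariate. Summed over the 4 ligands, the level was 152, 152 and 147 CPM in Npas3+/- libraries and 131, 129 and 139 CPM in WT libraries, which do not overlap. Jag2 supplied most of both sums.

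Hes5 had the largest fold change of the 10 genes. Hes5 (ENSMUSG00000048001, chromosome 4, 154960923 to 154962371) encodes a repressor of neurogenesis that serves as a readout of Notch activity in radial glia. It stood at 9.25, 11.4 and 17.2 CPM in Npas3+/- replicates 1 to 3, against 20.5, 18.9 and 18.6 CPM in WT replicates 1 to 3. The WT libraries lay close together, with a coefficient of variation of 5.20%, and the Npas3+/- libraries did not, with 32.7%. Replicate 3 was the nearest of the Npas3+/- libraries to WT. The Npas3+/- mean was 65.2% of the WT mean. The log2 fold change was -0.62 (SE 0.21, 95% interval -1.12 to -0.12) and did not pass in edgeR (adjusted p = 0.338) or in DESeq2 (adjusted p = 0.0688). With the striatal marker score as a covariate it was -0.35 (edgeR adjusted p = 0.820).

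Hes1 did not follow Hes5 in every library. Hes1 (ENSMUSG00000022528, chromosome 16, 30064384 to 30067796), a repressor whose level is known to oscillate in neural progenitors, was at 3.77, 3.81 and 7.36 CPM in Npas3+/- libraries, against 5.63, 5.04 and 4.91 CPM in WT libraries. Npas3+/- replicates 1 and 2 were below all WT libraries and replicate 3 was above all of them. The log2 fold change was -0.06 (SE 0.28) with a wide interval of -0.70 to 0.58. It was -0.45 without Npas3+/- replicate 3 (edgeR adjusted p = 0.321), and 0.11 and 0.10 without Npas3+/- replicate 1 or 2. With the striatal marker score as a covariate the value was 0.28 (edgeR adjusted p = 0.899).

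**Figure D1:**
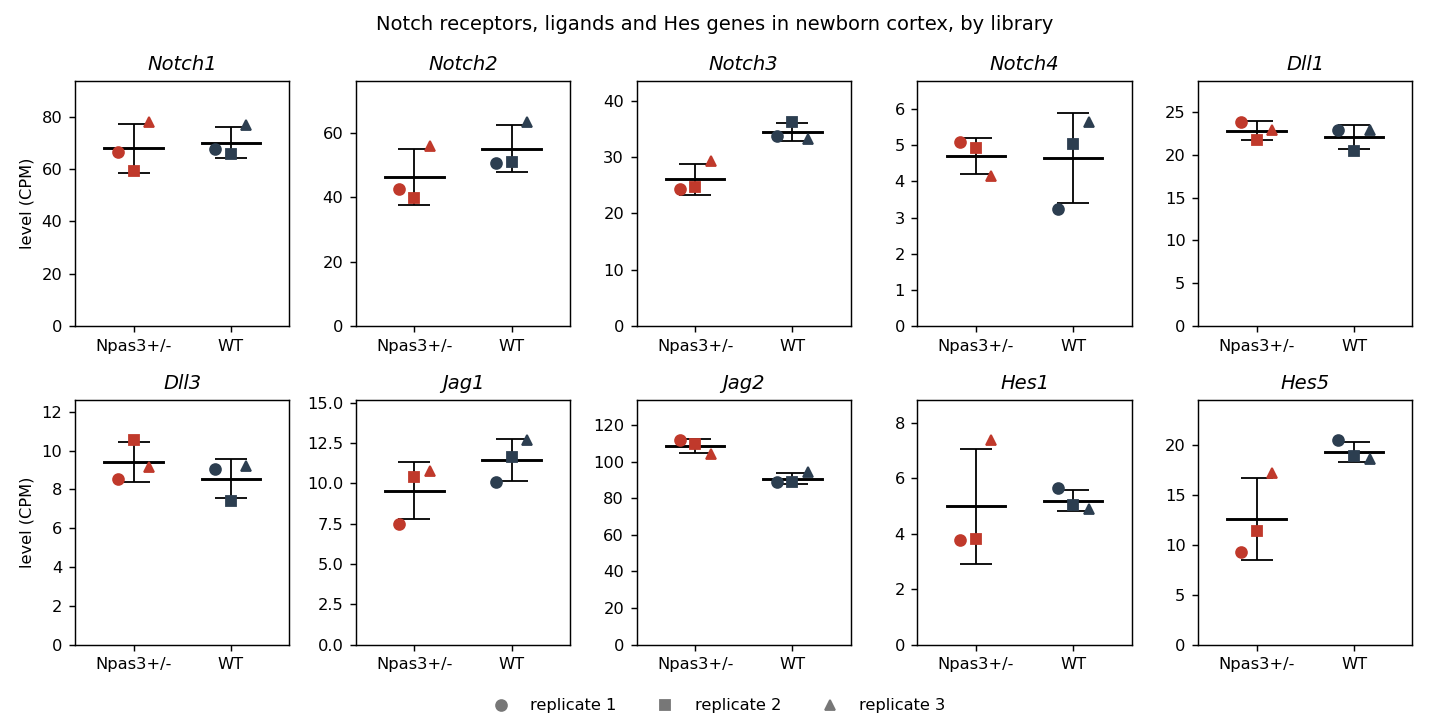
Level of each of the 10 genes in CPM (vertical axis, from 0) in the 3 Npas3+/- libraries (red) and the 3 WT libraries (dark), with marker shapes for replicates, lines for means and bars for SD (n = 3). Notch3 and Hes5 lie below WT in every Npas3+/- library and Jag2 above, while Hes1 splits the Npas3+/- libraries around WT.

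Of the 10 genes, 0 passed in edgeR adjusted over all genes, where 0.0377% of genes did. At an unadjusted p under 0.05 in edgeR, 2 were lower (Notch3 and Hes5), against 5.84% of all genes, and 1 was higher (Jag2), against 6.29%. DESeq2 called 2 of the 10, Notch3 and Jag2, where it called 2.77% of the genes it gave an adjusted p, and limma-voom called 0. The genotypes did not overlap for 2 genes in the lower direction, where 9.18% of all genes did the same, and for 1 in the higher direction, where 9.70% did. In all, 6 of the 10 log2 fold changes were below 0, against 51.8% over all genes. The median of the 10 was -0.05, beside -0.01 over all genes, and it was -0.25 without Npas3+/- replicate 3. For a single gene, the smallest two-sided p that an exact permutation of 3 Npas3+/- and 3 WT labels can reach is 0.1.

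**Figure D2:**
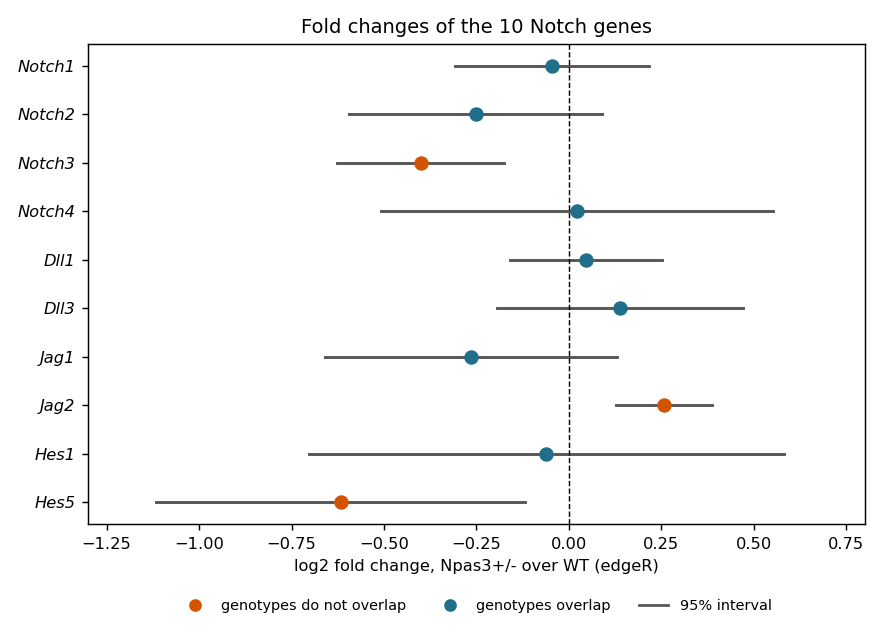
Log2 fold change of Npas3+/- over WT (horizontal axis) for each of the 10 genes from edgeR, with its 95% interval as a line and orange points where the genotypes do not overlap. The intervals of Notch3, Jag2 and Hes5 lie to one side of 0 before adjustment over all genes, and those of the other 7 span it.

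The order of the Npas3+/- libraries differed between genes. In 6 of the 10 genes (Notch1, Notch2, Notch3, Jag1, Hes1 and Hes5) replicate 3 was the highest of the Npas3+/- libraries, the library that also lay among WT on the leading component. In 3 genes (Notch4, Dll1 and Jag2) replicate 1 was the highest, and in Dll3 replicate 2. The counting error at a gene's lowest count was between 1.29% for Jag2 and 6.76% for Notch4. For Dll1 it was 2.54%, beside a coefficient of variation of 4.64% between the Npas3+/- libraries. For Hes5 the lowest count of 813 gives 3.51%, beside the 32.7% seen between the Npas3+/- libraries.

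Markers of radial glia and astrocytes, cells that make Notch receptors and Hes5, stood lower in the Npas3+/- libraries too. Their summed level over 12 genes was 1411, 1332 and 1620 CPM in Npas3+/- replicates 1 to 3, against 1779, 1890 and 1917 CPM in WT replicates 1 to 3, with no overlap. Of the 12, 11 had log2 fold changes below 0, with a median of -0.35, and 0 passed in edgeR over all genes, with 9 lower (5.84% over all genes) and 0 higher (6.29%) at an unadjusted p under 0.05. DESeq2 called 3 of them, where it called 2.77% over all genes. In bulk tissue, fewer cells of a type and less RNA per cell cannot be told apart. Set against this sum, Hes5 stood at 0.656, 0.853 and 1.06 CPM per 100 CPM of these markers in Npas3+/- libraries, against 1.1503, 1.0019 and 0.969 in WT libraries, which overlap. Notch3 stood at 1.72, 1.85 and 1.81 in Npas3+/- libraries, against 1.90, 1.92 and 1.73 in WT libraries, which also overlap. Jag2 stood at 7.92, 8.24 and 6.45 in Npas3+/- libraries, against 5.01, 4.72 and 4.91 in WT libraries, which do not. Notch1 stood at 4.71, 4.45 and 4.82 in Npas3+/- libraries, against 3.80, 3.48 and 4.02 in WT libraries, which do not either. Hes1 stood at 0.267, 0.286 and 0.455 in Npas3+/- libraries, against 0.316, 0.267 and 0.256 in WT libraries, which overlap. The marker sum is itself lower in Npas3+/- libraries, so a gene with an unchanged level stands higher against it. In CPM, Notch1 overlapped between the genotypes, so its ratio does not show a change in Notch1, and that of Jag2 is widened by the sum. The part of these marker levels in the values of the Notch genes was not tested.

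The summed vessel markers overlapped between the genotypes. The summed level of 10 pericyte and smooth muscle markers was 129 to 155 CPM in Npas3+/- libraries and 142 to 150 CPM in WT libraries, and that of 10 endothelial markers 148 to 151 CPM in Npas3+/- libraries and 145 to 156 CPM in WT libraries. Set against the pericyte and smooth muscle sum, Notch3 stood at 18.9, 15.9 and 20.2 CPM per 100 CPM in Npas3+/- libraries, against 23.6, 24.2 and 23.3 in WT libraries, with no overlap. Rgs5 was the largest part of that sum, averaging 67.7 of 142.7 CPM in Npas3+/- libraries and 70.7 of 145.0 CPM in WT libraries. The smooth muscle markers Acta2 and Myh11 were near 0, so the sum says little about smooth muscle. Pdgfrb, a pericyte marker, had a log2 fold change of -0.25 with overlap. The part of vessel cells in the Notch3 values was not tested. Choroid plexus markers were near 0, with sums over 3 tested genes of 1.68 to 2.44 CPM in Npas3+/- libraries and 0.976 to 1.08 CPM in WT libraries. Markers of intermediate progenitors, which present Delta ligands, summed to 68.8 to 78.4 CPM over 5 tested genes in Npas3+/- libraries and 62.5 to 77.3 CPM in WT libraries. The score of the striatal markers was -1.03, -1.13 and 0.45 in Npas3+/- libraries, against 0.89, 1.21 and -0.39 in WT libraries, on the scale of mean log2 deviation. It was low in Npas3+/- replicates 1 and 2, the libraries in which Hes1, Hes5, Notch2 and Notch3 were lowest. It was also low in WT replicate 3, at -0.39, where Notch2 was the highest of all libraries, at 63.4 CPM. Hes1, Hes5 and Notch3 were there at 4.91, 18.6 and 33.2 CPM, the lowest of WT but above Npas3+/- replicates 1 and 2. The part of this score in those values was not tested beyond the covariate fit.

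**Figure D3:**
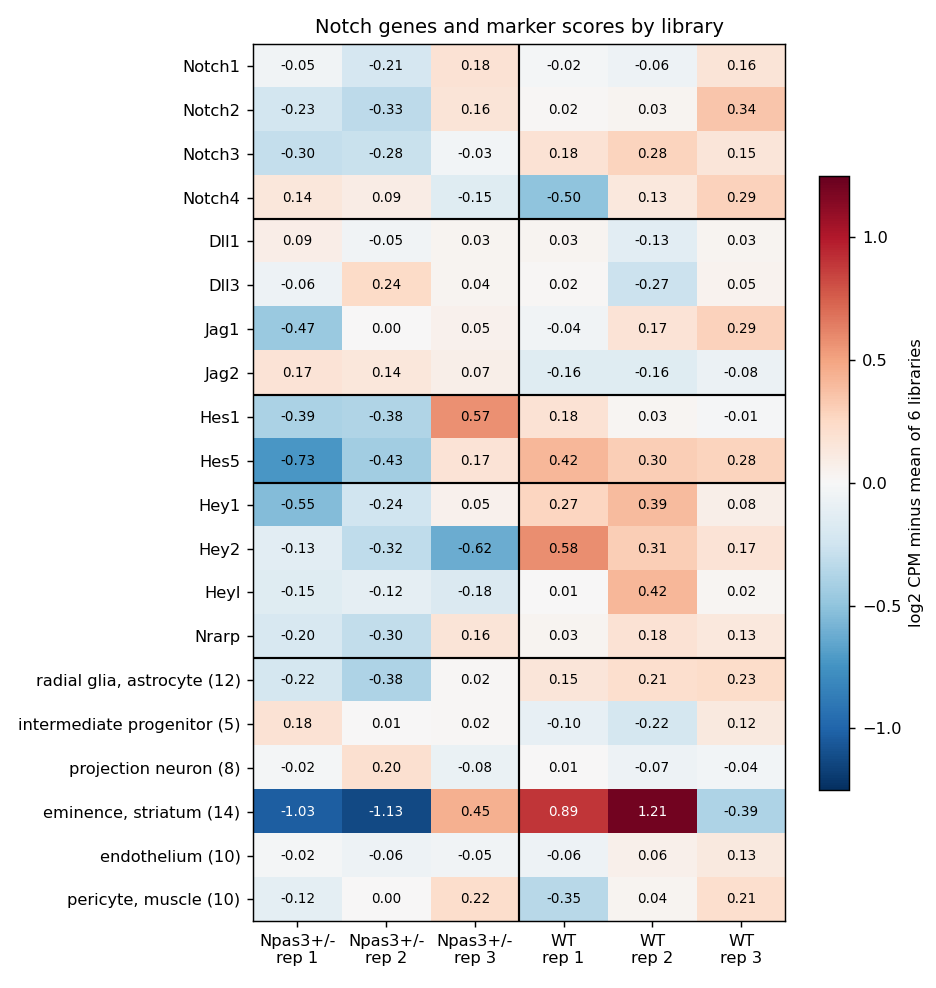
Log2 CPM of each gene minus its mean over the 6 libraries (colour and printed value) for the 10 Notch genes, for Hey1, Hey2, Heyl and Nrarp, and for the mean of each marker list (number of genes in brackets), with Npas3+/- libraries on the left and WT on the right. Hes5 runs from -0.73 to 0.17 in Npas3+/- and from 0.28 to 0.42 in WT libraries, and the striatal score has both signs within each genotype.

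The rest of the pathway was read from 61 further genes, of which 59 were tested. In edgeR 0 passed adjusted over all genes, with 4 lower (5.84% over all genes) and 10 higher (6.29% over all genes) at an unadjusted p under 0.05. DESeq2 called 3, where it called 2.77% over all genes, and limma-voom 0. The genotypes did not overlap for 7 genes in the lower direction (9.18% over all genes) and 14 in the higher direction (9.70% over all genes). The median log2 fold change was 0.01.

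Target genes other than Hes1 and Hes5 were listed as 8, and 6 were tested. Hey1 and Hey2, Hes-related repressors, were lower in all Npas3+/- libraries than in any WT library. Hey1 was at 11.2, 13.8 and 16.9 CPM in Npas3+/- libraries, against 19.7, 21.4 and 17.2 CPM in WT libraries (log2 fold change -0.48, SE 0.16, edgeR adjusted p = 0.337). Hey2 was at 1.71, 1.495 and 1.21 CPM in Npas3+/- libraries, against 2.81, 2.32 and 2.104 CPM in WT libraries (log2 fold change -0.71, SE 0.23, edgeR adjusted p = 0.323). Heyl, named after its values were seen, was the third without overlap, at -0.31 (SE 0.16), and at -0.16 without WT replicate 2. In Hey1 as in Hes5, Npas3+/- replicate 3 was the highest of its genotype, whereas in Hey2 it was the lowest. With the striatal score as a covariate, Hey1 was at -0.22 and Hey2 at -0.79. The median of the 6 was -0.26, and 5 were below 0.

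In the nucleus, 18 genes of the RBPJ complex and its corepressors were tested, with a median of 0.08 and 11 above 0. Spen, a corepressor that binds RBPJ in the absence of Notch, was at 208, 225 and 192 CPM in Npas3+/- libraries, against 175, 167 and 175 CPM in WT libraries (log2 fold change 0.28, SE 0.07, edgeR adjusted p = 0.276). Tle2, a Groucho corepressor recruited by Hes proteins, was at 39.1, 33.7 and 34.0 CPM in Npas3+/- libraries, against 25.6, 27.1 and 30.5 CPM in WT libraries (log2 fold change 0.36, SE 0.10, edgeR adjusted p = 0.276). With the GC trend removed Spen was at 0.22 and Tle2 at 0.27, and with the striatal score as a covariate at 0.19 and 0.26. Rbpj itself, named after its values were seen, had a log2 fold change of 0.22 (SE 0.08) without overlap, and 0.14 with the striatal score as a covariate. In this group of 18, 8 genes were higher without overlap, beside 9.70% over all genes, and 1 was lower, beside 9.18%. These counts used CPM without the GC correction.

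Of 5 other ligands and ligand-like genes, 4 were below 0, with a median of -0.42. Dner, a ligand-like protein of neurons, was at 166, 165 and 204 CPM in Npas3+/- libraries, against 221, 287 and 207 CPM in WT libraries (log2 fold change -0.42, SE 0.14, edgeR adjusted p = 0.320). Its value was -0.27 without WT replicate 2 and -0.17 with the striatal score as a covariate. Dlk2, a Delta-like protein without the Notch-binding domain of the classical ligands, was at 40.2, 42.0 and 36.8 CPM in Npas3+/- libraries, against 31.4, 30.5 and 29.3 CPM in WT libraries. It had a log2 fold change of 0.38 (SE 0.08, edgeR adjusted p = 0.270), and DESeq2 called it (adjusted p = 0.0134).

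Among genes that handle the proteins of the pathway, log2 fold changes ran from -0.12 to 0.29 for cleavage, from -0.15 to 0.16 for glycosyltransferases and from -0.59 to 0.43 for endocytosis and ubiquitination. Of 10 genes of receptor cleavage and the gamma-secretase, 5 were above 0 and 5 below, and Furin, which cuts the receptor during its maturation, was at 0.29 (SE 0.17), with 0.12 without WT replicate 2, 0.46 without WT replicate 3 and 0.16 with the striatal score as a covariate. Of 5 glycosyltransferases that modify the receptors, Rfng, a Fringe enzyme, was at 0.16 (SE 0.06; 0.07 with the GC trend removed) and Pofut1, which adds fucose, at -0.15 (SE 0.07). Of 15 genes of endocytosis and ubiquitination, 10 were above 0. The lowest, named after their values were seen, were Neurl1a (-0.59, SE 0.30, edgeR adjusted p = 0.481), a Neuralized ubiquitin ligase, and Epn2 (-0.41, SE 0.19, edgeR adjusted p = 0.448), an epsin of endocytosis, and both overlapped between the genotypes. Neurl1a was at -0.0066 with the striatal score as a covariate, and at -0.36 without Npas3+/- replicate 2 and -0.35 without WT replicate 2. Epn2 was at -0.13 without WT replicate 1 and -0.67 with the endothelial score as a covariate. Mib2, a ubiquitin ligase of Notch ligands, was at 96.3, 90.3 and 95.7 CPM in Npas3+/- libraries, against 75.2, 81.0 and 78.1 CPM in WT libraries (log2 fold change 0.27, SE 0.06, edgeR adjusted p = 0.272, DESeq2 adjusted p = 0.0358). Dtx4, a Deltex ubiquitin ligase, was at 345, 335 and 285 CPM in Npas3+/- libraries, against 247, 212 and 258 CPM in WT libraries (log2 fold change 0.43, SE 0.10, edgeR adjusted p = 0.272, DESeq2 adjusted p = 0.00880). With the GC trend removed Mib2 was at 0.17 and Dlk2 at 0.28, and with the striatal score as a covariate Dtx4 was at 0.25.

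**Figure D4:**
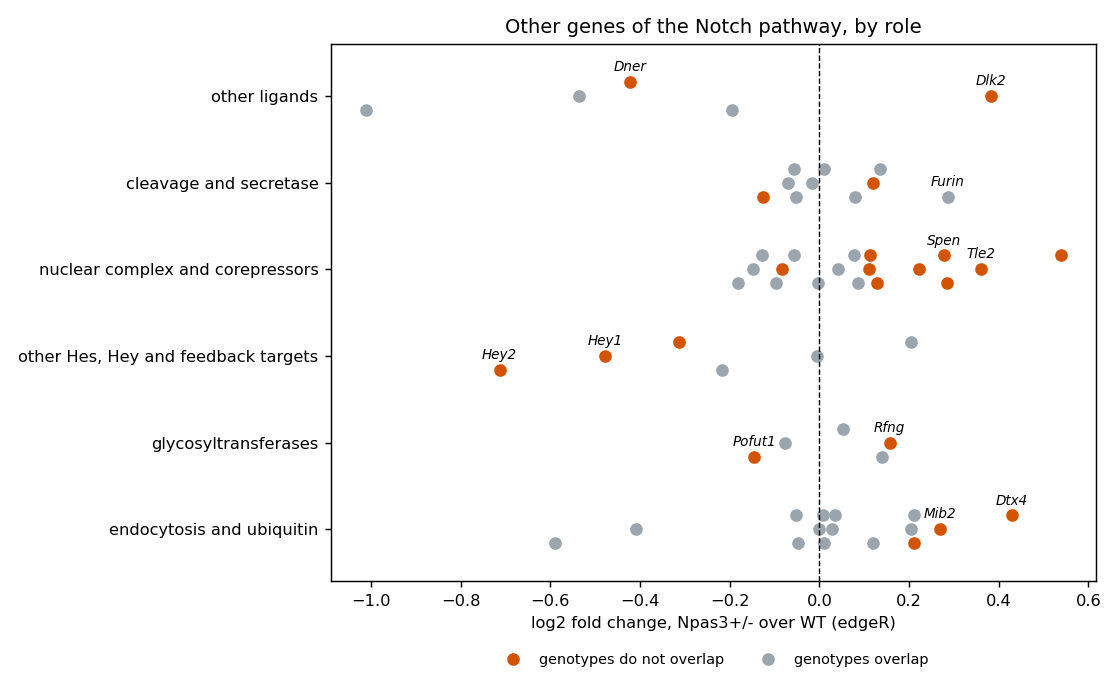
Log2 fold change of Npas3+/- over WT (horizontal axis) for the 59 further pathway genes tested, in rows by role, with orange points where the genotypes do not overlap and names for the genes given in the text by the smallest p in each role. Orange points among the target genes lie below 0, and 8 of the 9 among the nuclear genes lie above 0.

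Overlapping annotation touched 4 of the 10 genes on the opposite strand, and whether the counting used strand was not given in the sources used here. Hes5 shares exon sequence with Gm20421, which had 67 to 125 counts in Npas3+/- libraries and 84 to 136 in WT libraries. Notch3 overlaps Gm17276, with 54 to 77 counts in Npas3+/- and 63 to 132 in WT libraries. Dll1 overlaps A930024N18Rik, with 456 to 713 counts in Npas3+/- and 351 to 469 in WT libraries. Notch1 overlaps Gm13568, with at most 7 counts in any library, and 0610009E02Rik, with 38 to 72 counts in Npas3+/- and 52 to 94 in WT libraries. On the same strand, Notch2 overlaps Gm42820, with 19 to 23 counts in Npas3+/- and 30 to 99 in WT libraries, lower without overlap. Notch2 itself had 3069 to 4550 counts per library. Apart from these and from Gm30232 with Notch3, no window of 50 bases in the transcripts of the 10 genes occurred in those of another gene.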

How the data were processed

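Cortex RNA was sequenced from 3 Npas3+/- and 3 WT samples, grouped by their labels; columns abbreviated NP were taken as Npas3+/-, the only genotype besides WT. The authors deposited raw read counts per gene. The submitters' processing notes name mm10, featureCounts, HISAT2 2.1.0 and Trimmomatic 0.3.8; the annotation release and the use of strand are not given there. Identifiers were matched to GENCODE M21 symbols (53274 of 53379), which also gave coordinates, exon lengths and GC content.

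Counts were fitted in R 4.3.3 with edgeR 4.0.16 over all genes kept by filterByExpr (TMM scaling, glmQLFit and glmQLFTest, genotype as the only term), with Benjamini-Hochberg adjustment over all 21244 genes at a threshold of 0.05. SE is the size of the log2 fold change over the square root of F, and intervals cover 95%. Scores are mean deviations of log2 CPM with a prior count of 2. Counting error is the Poisson error of the lowest count. DESeq2 1.42.0 with its defaults on all genes with a read, limma-voom (limma 3.58.1), other scaling and filters, a replicate block, a GC correction (lowess, span 0.4, as offsets), covariates of marker scores and each library left out in turn were alternatives. The steps were tested on simulated counts.

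The genes and lists were chosen with earlier results of these data known. Named are the 10 genes, the 2 genes with the smallest p in each pathway role (1 of these is not reported here), and marker genes. No library repeated another, since the closest pair had a chi-square of 41.9 per gene.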

Additional observations from a re-analysis of the deposited data

How the results depend on the processing

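In edgeR, 0 of the 10 Notch genes and 0 of the wider pathway genes passed under every scaling, filter, covariate, GC and replicate block setting tried, at a threshold of 0.10, and without any single library; limma-voom also called 0. DESeq2 called 2 of the 10 and 3 of the wider list; over all genes it called 425, against 8 in edgeR. The median log2 fold change of the 10 ranged from -0.25 (without Npas3+/- replicate 3) to 0.019 (without Npas3+/- replicate 2). Notch3, Jag2 and Hes5 kept their direction throughout: leaving out each library gave -0.49 to -0.35 for Notch3, 0.24 to 0.29 for Jag2 and -0.90 to -0.43 for Hes5, with adjusted p from 0.145 to 0.626 in edgeR. Over all alternatives the adjusted p ran from 0.0276 (DESeq2) to 0.820 (edgeR with the striatal covariate). The striatal covariate gave -0.27 for Notch3, 0.20 for Jag2 and -0.35 for Hes5. The replicate block gave -0.40 for Notch3, 0.26 for Jag2 and -0.66 for Hes5 and changed no call; same-numbered libraries did not deviate together (r = 0.04, -0.03 and -0.09), so the numbers were not taken to pair samples. Notch4, Dll1, Hes1 and Notch1, all near 0, changed sign. Notch4 was -0.080 with the GC correction, -0.053 with replicate block and GC correction, -0.20 with the striatal covariate, 0.42 with the endothelial covariate, and -0.18 to 0.19 leaving out each library. Dll1 was -0.0027 with the GC correction, -0.0018 with replicate block and GC correction, and -0.0052 to 0.083 leaving out each library. Hes1 was 0.28 with the striatal covariate and -0.45 to 0.11 leaving out each library. Notch1 was 0.028 with the endothelial covariate and -0.15 to 0.045 leaving out each library. The cause of these changes was not tested. Notch4 had the largest counting error of the 10 at its lowest count, 6.76%. Its coefficients of variation were larger, at 10.5% in Npas3+/- and 27.0% in WT libraries.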
